A study of Mus musculus with 3 samples.

Results

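The comparison described here is that of noggin-treated with untreated R1 cells, an established line of mouse embryonic stem (ES) cells kept in the undifferentiated state. It takes 2 of the 3 arrays of the study: 1 array of cells that received no treatment, and 1 array of cells given 100 ng/ml noggin over 4 h. The third array, of cells given 20 ng/ml BMP4 over 4 h, is shown beside the pair where it helps to read a value. The labels used here give no culture time for the untreated cells, and state neither the medium nor whether feeder cells were present. Values are log2 expression values per probe set, so a difference of 1 is a 2-fold difference, and every difference below is the noggin value minus the untreated value. Of the 45101 probe sets of the array, 34945 (77.5%) carry a single gene symbol, and these stand for 18193 genes. The probe set whose mean across all 3 arrays was highest stood for its gene, and 11594 genes had a value above a floor of 3.44, the median of all values, on at least 1 array. With 1 array per condition there is no replicate error and no test. Sizes are given, and the number of arrays limits their precision.

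Bone morphogenetic proteins (BMPs) bind paired receptor kinases, which phosphorylate the transcription factors SMAD1, SMAD5 and SMAD9. With SMAD4 these enter the nucleus and act on target genes, of which the Id genes are the best known in ES cells. Noggin is a secreted protein that binds BMPs outside the cell and keeps them from their receptors, so the comparison asks which transcripts of undifferentiated cells depend on BMP activity already present in the culture.

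The differences were small. The lowest was −0.82 and the highest 0.60, and 93.8% of genes differed by less than 0.2 in either direction. Of the 11594 genes, 4191 (36.1%) had a lower value with noggin, 3109 (26.8%) a higher value, and 4294 (37.0%) exactly the same value to 6 decimals. The median difference over all genes was 0.00 and the mean −0.01. No gene reached a 2-fold difference. At least 1.5-fold lower were 8 genes (0.069%), and at least 1.5-fold higher was 1 (0.00863%), together 0.0776% of genes. At a limit of 1.2-fold, a log2 difference of 0.26, the counts were 220 lower (1.9%) and 104 higher (0.897%), together 2.79%. Lower values thus outnumbered higher ones at each limit.

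**Figure D1:**
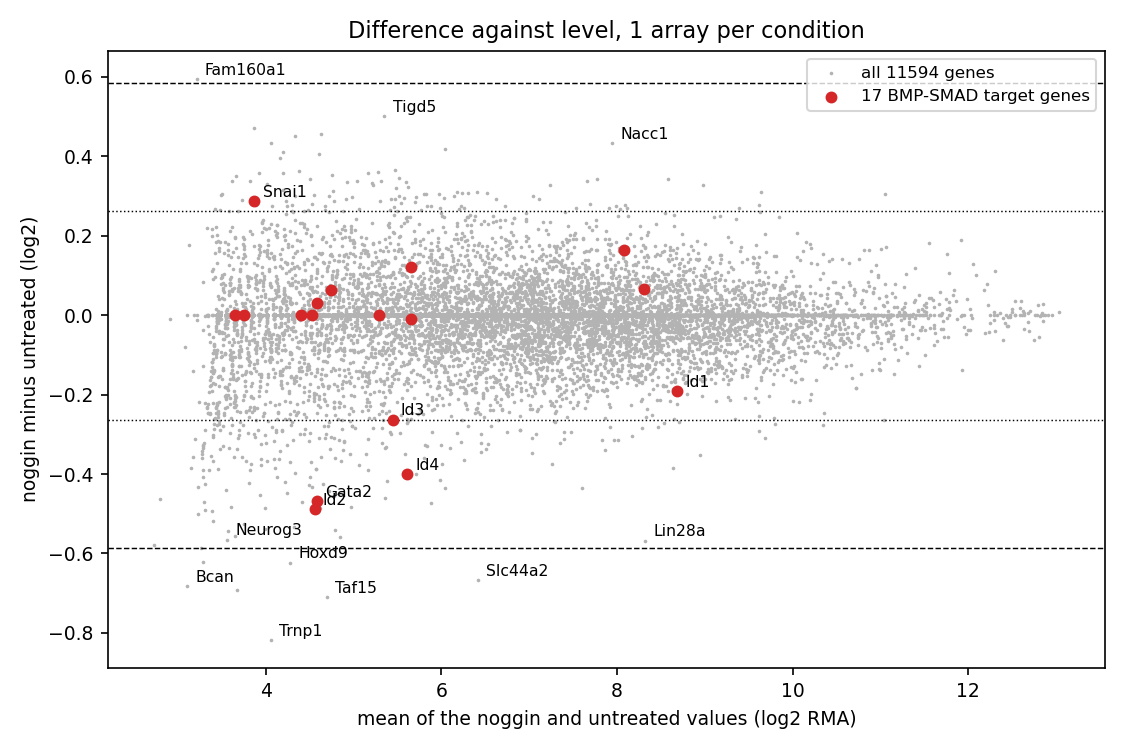
Difference between the noggin and the untreated array (vertical axis, log2) against the mean of both values (horizontal axis, log2 RMA) for 11594 genes, 1 point per gene. The 17 measured BMP-SMAD target genes are in red, dashed lines mark 1.5-fold and dotted lines 1.2-fold; Id2, Gata2 and Id4 lie below the lower dotted line, and most of the points past it have mean values under 5.

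The pluripotency markers were high on both arrays. All 9 defining ES cell markers, among them Pou5f1, Sox2, Nanog and Zfp42, were above the floor, with values between 8.95 and 12.83 on the untreated array and between 9.05 and 12.86 on the noggin array. Of 10 fibroblast markers, which would mark feeder cells, 6 were above the floor on an array of the pair, and their highest value was 5.09. Above the floor were Col1a2, Thy1, Dcn, Postn, Pdgfrb and Twist1, while Col1a1, Col3a1, Lum and Fap were below it. Poly-A spikes are transcripts of 4 bacterial genes added to the RNA before labelling. Of their 24 probe sets, 23 were lower on the noggin array, with a median difference of −0.29 for the 8 probe sets at the 5′ end and −0.11 for the 8 at the 3′ end. The 18 probe sets of spikes added after labelling had a median difference of −0.01. The array's control probe sets for Tfrc, the transferrin receptor, gave a 3′ excess over the 5′ end of 1.88 with noggin and 1.51 without. Those for Pcx, pyruvate carboxylase, gave 1.57 and 1.26. The excess differed less for Actb, at 0.37 with noggin and 0.32 without, and for Gapdh, at 0.10 and 0.06. The part of these shifts in the gene differences was not tested.

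The BMP-SMAD target genes came in separate groups. Of 24 listed genes 17 passed the floor, and of these 6 were lower, 6 higher and 5 exactly equal, with a median of 0.00, the same as over all genes. With all probe sets of a gene averaged, 9 of 15 were lower and 3 higher (median −0.01). Over all genes averaged in this way, 5525 of 10708 were lower and 2844 higher. All 4 Id genes and Gata2 were on the lower side. At least 1.2-fold lower were 4 of the 17, Id2, Gata2, Id4 and, at the limit itself, Id3, beside 1.9% of all genes. At least 1.2-fold higher was 1, Snai1, beside 0.897%. The list had a median level of 4.74. Of all 2809 genes between the floor and 5, 110 were at least 1.2-fold lower and 39 at least 1.2-fold higher. The Id proteins lack a DNA-binding domain and dimerise with basic helix-loop-helix factors, which keeps those factors off DNA.

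Id2 measured 4.80 on the untreated and 4.31 on the noggin array, a value 1.40-fold lower, and 8.90 on the BMP4 array. A second probe set of Id2 gave 4.14 and 4.09, a difference of −0.05, and the third lay below the floor. Of the probe sets of Id2 above the floor, the first alone shows the larger difference. Id4 measured 5.81 without and 5.41 with noggin, a difference of −0.40. Its other probe sets gave −0.41 and −0.22, so that all 3 probe sets of Id4 were lower, and on the BMP4 array its main probe set measured 6.65. Id3 measured 5.58 and 5.31, a difference of −0.26, against 9.16 with BMP4. Id1 measured 8.78 and 8.59, a difference of −0.19, against 11.54 with BMP4. Id1 and Id3 have 1 probe set each above the floor. Gata2, a GATA factor known from blood stem cells, measured 4.81 and 4.34, and its second probe set gave 3.45 and 3.33. The noggin value was the lowest of the 3 arrays for each of these 5 genes, and the BMP4 value the highest. The noggin and the BMP4 differences share the untreated array. Some of these values were exactly those of many probe sets. The noggin value of Id2 was held by 110 probe sets and that of Id3 by 46. The untreated value of Gata2 was held by 77, while neither value of Id4 was shared.

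The sequences around the transcription start are shown for the 4 genes of this group that the promoter table holds, because these target genes had the lowest differences. They are from RefSeq, build GRCm38.p6, and cover 250 bases before to 50 after the start, written 5′ to 3′ on the strand of the gene: Id2 at chr12:25096043-25096342 on the minus strand, Id4 at chr13:48260866-48261165 on the plus strand, Id3 at chr4:136143572-136143871 on the plus strand, and Gata2 at chr6:88198414-88198713 on the plus strand, the downstream of its 2 windows. Capitals mark GGCGCC, a palindrome bound by BMP-activated SMADs, and CAGAC, a short SMAD binding element (GTCTG on the other strand). GGCGCC reads the same on both strands, and the 2 motifs can share at most 1 base.
Id2: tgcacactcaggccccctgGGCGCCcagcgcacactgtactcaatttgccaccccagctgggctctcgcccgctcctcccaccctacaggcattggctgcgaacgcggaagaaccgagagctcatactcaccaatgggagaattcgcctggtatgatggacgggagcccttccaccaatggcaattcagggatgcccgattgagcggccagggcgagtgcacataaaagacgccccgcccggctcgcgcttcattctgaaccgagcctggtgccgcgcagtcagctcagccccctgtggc
Id4: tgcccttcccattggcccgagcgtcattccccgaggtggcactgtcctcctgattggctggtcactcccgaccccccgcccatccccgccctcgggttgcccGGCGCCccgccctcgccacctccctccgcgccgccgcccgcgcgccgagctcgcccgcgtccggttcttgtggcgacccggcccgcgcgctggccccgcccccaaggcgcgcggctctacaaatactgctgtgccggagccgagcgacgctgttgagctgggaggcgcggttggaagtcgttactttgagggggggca
Id3: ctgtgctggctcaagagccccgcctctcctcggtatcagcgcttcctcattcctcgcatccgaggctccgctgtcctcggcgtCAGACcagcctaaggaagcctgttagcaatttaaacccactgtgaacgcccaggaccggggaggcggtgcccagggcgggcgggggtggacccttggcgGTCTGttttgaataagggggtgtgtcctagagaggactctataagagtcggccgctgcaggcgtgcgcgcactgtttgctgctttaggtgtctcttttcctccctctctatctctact
Gata2: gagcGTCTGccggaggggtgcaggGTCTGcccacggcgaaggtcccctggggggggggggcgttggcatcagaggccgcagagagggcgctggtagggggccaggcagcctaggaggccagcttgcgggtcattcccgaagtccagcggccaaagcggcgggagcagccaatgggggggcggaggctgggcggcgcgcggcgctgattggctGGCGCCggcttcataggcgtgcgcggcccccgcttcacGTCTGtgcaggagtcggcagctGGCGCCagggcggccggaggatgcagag
Id2 and Id4 each hold 1 GGCGCC and Gata2 holds 2, while Id3 holds none and has 2 matches of CAGAC. The other window of Gata2, at chr6:88193641-88193940, holds neither motif. Of the 32851 promoter windows of the same length in the table, 11.9% hold GGCGCC and 49.6% hold CAGAC. Among the 17 measured target genes, 10 have a window, with 11 windows in all. Counted by gene, with a match in any window, 3 of the 10 hold GGCGCC, namely Id2, Id4 and Gata2. CAGAC is held by 3, namely Id3, Gata2 and Smurf1. The shares over all windows are per window and not per gene, so they are not a like measure. The matches are a description of these windows, and binding was not measured here.

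The other target genes were flat or slightly higher. The inhibitory SMAD gene Smad6 measured 4.40 on both arrays, and the homeobox genes Msx1 and Dlx3, the Notch and BMP responsive repressor Hey1 and the bHLH factor Atoh8 were also exactly equal. Bambi, a pseudoreceptor that dampens BMP signals, measured 5.66 and 5.65. Msx2 measured 4.71 without and 4.77 with noggin, against 6.25 with BMP4. Msx2 was thus higher on both treated arrays. Smad7, the second inhibitory SMAD, was higher by 0.16, at 8.17 with noggin, and its other probe set gave −0.19, the opposite sign. Smurf1, a ubiquitin ligase for SMADs, was higher by 0.12, and Tbx3 by 0.07, with its other 3 probe sets between −0.33 and 0.25. Snai1, a repressor of E-cadherin, had the highest difference of the list at 0.29, with 3.72 against 4.01, both near the floor. Hand1 differed by 0.03. The 7 members below the floor were Smad9, Dlx2, Dlx5, Gata3, Tbx2, Bmper and Nog, the gene of noggin itself, which measured 2.49 and 2.48.

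**Figure D2:**
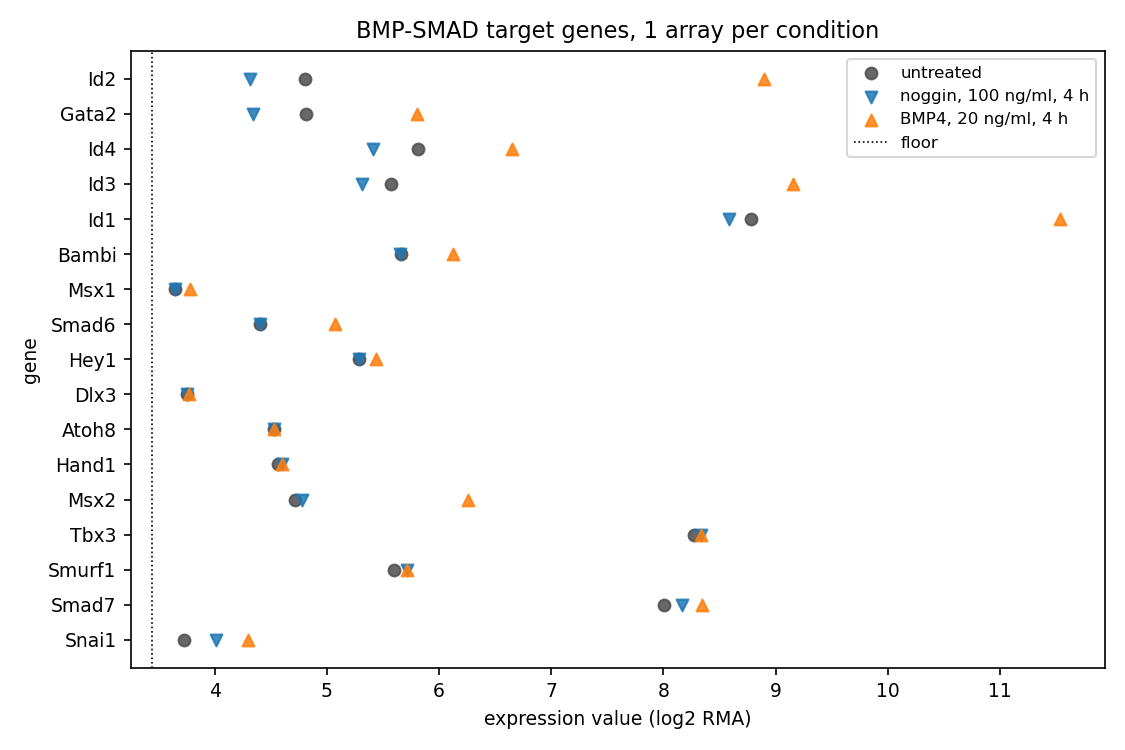
Expression value (horizontal axis, log2 RMA) of the 17 measured BMP-SMAD target genes on the untreated (circle), noggin (downward triangle) and BMP4 (upward triangle) arrays, 1 array per condition; the dotted line is the floor of 3.44. Id2, Gata2, Id4, Id3 and Id1 lie lowest on the noggin array, while Smad6, Msx1, Hey1, Dlx3 and Atoh8 have the same value on the noggin and untreated arrays.

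The genes of the pathway itself were described by role. Of 14 ligand genes 7 were measured, 4 lower, 1 higher and 2 equal, with a median of −0.01. Bmp4 measured 8.50 without and 8.40 with noggin, and Gdf3 9.22 and 9.21. Bmp7 measured 3.65 and 3.31 and Gdf9 3.65 and 3.42, so both were above the floor without and below it with noggin. Bmp1, which is a protease that cleaves the BMP antagonist chordin and not a signalling ligand, was higher by 0.26, at 4.18 and 4.44, and had exactly 4.44 on the BMP4 array as well. Bmp8a and Bmp8b were equal.

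Of 13 receptors and co-receptors 10 were measured, and 7 were higher, 1 lower and 2 equal, with a median of 0.05. The co-receptor gene Eng (endoglin) measured 7.08 and 7.30, a difference of 0.21, but its second probe set had 0.00. Tgfbr3, the betaglycan co-receptor, was higher by 0.15 and Rgmb by 0.09. The type I receptor gene Bmpr1a and the type II receptor gene Acvr2b were each higher by 0.07, with other probe sets between 0.00 and 0.12 for Bmpr1a and at 0.00 for Acvr2b. Acvr2a was higher by 0.04 and Neo1 by 0.01, while Bmpr2 and Acvr1 were exactly equal. Hjv, a co-receptor gene of the repulsive guidance molecule family, was the member below 0, at 3.93 and 3.37, a difference of −0.56, and it measured 3.38 with BMP4. Its noggin value lay below the floor. In 3 of the 7 higher receptor genes, Eng, Acvr2b and Acvr2a, the second probe set was exactly equal on the pair.

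Among SMAD and Smurf genes, 7 of the 11 measured were higher, 1 lower and 3 equal, with a median of 0.02. Smad1, a direct BMP effector, was the lower one, at 7.15 and 7.03, and its other 2 probe sets gave −0.09 and −0.02, so that all 3 were lower. Smad5, the related effector, was higher by 0.03, with other probe sets from 0.00 to 0.21. Smad4 and Smad2 were equal, and Smad3 was higher by 0.11. Skil and Ski, repressors of SMAD complexes, were higher by 0.07 and 0.01, and Smurf2 by 0.02. Of 17 antagonist genes 7 were measured: Twsg1 was higher by 0.12, with other probe sets at −0.18 and −0.05, Crim1 and Fstl3 were lower by 0.06 and 0.03 in size, and Chrd (chordin), Grem1, Fstl1 and Dand5 were equal. None of the SMAD, Smurf or antagonist genes passed 1.2-fold.

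LIF is the cytokine that maintains mouse ES cells through STAT3. In the list of LIF-STAT3 target genes, of 16 genes, all measured, 13 were lower, 1 higher and 2 equal, with a median of −0.10, against 36.1% of all genes lower and a median of 0.00. The list had a median genomic span of 5.33 kb and a median level of 8.02. In the shortest of 5 groups of genes by span, at levels between 7 and 9, 60.8% were lower and 11.8% higher. Only Fos passed 1.2-fold, 1 of 16, where 1.9% of all genes did. Fos, an immediate-early AP-1 component, measured 4.40 without and 4.07 with noggin, a difference of −0.33. The untreated value of Fos was exactly that of 102 probe sets. Socs3, the feedback inhibitor of the LIF receptor, measured 10.48 and 10.23, but its other probe sets gave −0.01 and 0.03, and the set that stands for it has a suffix that marks probes with matches in other sequences. Gbx2, a homeobox gene, measured 7.16 and 6.96, the same as with BMP4. Socs2 measured 8.54 and 8.36, with its other 4 probe sets between −0.09 and 0.00. The kinase genes Pim3 and Pim1 were at −0.13 and −0.10, each with a second probe set at 0.00, Myc at −0.12, Junb at −0.10 and Ier3 at −0.10. Klf5, Stat3, Klf4 and Cish lay between −0.04 and −0.01, Mras and Bcl3 were equal, and Tfcp2l1 was at 0.05. The second probe sets of Klf5 and Klf4 were at 0.00. By the probe sets that stand for the genes, most members were lower by small amounts, and second probe sets were often equal. The median difference of LIF-STAT3 target genes was −0.00641 with only probe sets of the plain suffix, and −0.06 with all probe sets of a gene averaged, with 14 of 16 lower. Over all genes, averaging gave 5525 of 10708 lower.

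Of 6 measured genes that carry the LIF signal, 4 were lower and 2 higher (median −0.02), and with probe sets averaged 3 were lower and 3 higher. Tyk2 was at −0.06 and Ptpn11 at −0.03, with second probe sets at −0.40 and −0.29. Lifr was at −0.03 and Jak2 at −0.02, while their other probe sets were higher, between 0.07 and 0.18. The receptor subunit gene Il6st was at 0.17, with other probe sets between −0.11 and 0.11, and Jak1 at 0.20, with others between −0.32 and 0.09. Probe sets of 4 of the 6 genes thus differed in sign. The immediate-early list, with 20 measured genes, had 9 lower and 7 higher members and a median of 0.00. Dusp1, a MAP kinase phosphatase, measured 8.78 and 8.59, while the matricellular genes Ccn1 and Ccn2 were higher by 0.34 and 0.13. The second probe set of Ccn1 gave 0.00. In the FGF-ERK feedback list, 7 of 15 were lower and 4 higher. Dusp6, which inactivates ERK, was lowest at −0.24, with 7.21 and 6.97, and Dusp5 highest at 0.12.

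By the probe sets that stand for the genes, the pluripotency network was balanced. Of 31 measured genes, 13 were lower, 13 higher and 5 equal, with a median of 0.00. Pou5f1 measured 11.31 on both arrays, Sox2 was at −0.04 and Nanog at −0.06. Tet1, a 5-methylcytosine dioxygenase, was highest at 0.11, Fgf4 at 0.10 and L1td1 at 0.08. Nr0b1 was at −0.11 and Tcl1 at −0.09. Lin28a, an RNA-binding inhibitor of let-7 maturation, stood apart at 8.61 and 8.04, a difference of −0.57, but its second probe set measured 8.24 and 8.32. Lin28a was the member past 1.2-fold, 1 of 31, where 1.9% of all genes were at least 1.2-fold lower.

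Genes of the next developmental stages were mostly at low levels. Of 11 measured primed epiblast genes 6 were lower, 2 higher and 3 equal, with a median of −0.06. Pou3f1, a POU factor of the primed epiblast and of early neural cells, measured 4.80 and 4.45, and its second probe set 4.53 and 4.17. Both probe sets of Pou3f1 were lower by 0.35 or more in size, and on the BMP4 array they measured 4.75 and 4.21. Fgf15 measured 4.27 and 3.91, Zic2 4.96 and 4.79, and Otx2 5.98 and 5.91. Cldn6, a tight junction gene, was higher, at 5.32 and 5.51, with 5.51 on the BMP4 array too. Fgf15 and Pou3f1 were the 2 of 11 at least 1.2-fold lower, beside 1.9% of all genes.

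Neuroectoderm genes, 14 of 25 measured, had 7 lower, 4 higher and 3 equal members and a median of −0.03. Six3, a forebrain homeobox gene, measured 3.55 and 3.16, below the floor with noggin, Ncam1 5.31 and 4.96, and Sox11 3.93 and 3.67. The other probe sets of Ncam1 gave 0.00 and 0.13. Nes (nestin), an intermediate filament of neural progenitors, measured 5.73 and 5.90, and its second probe set was also higher, by 0.22. Hesx1 was at 0.10 and Tubb3 at 0.07. Among bHLH genes, which are the partners or targets of Id proteins, 10 of 16 were measured, 4 lower, 2 higher and 4 equal. Neurog3, a proneural factor, measured 3.84 and 3.28, and Mesp2, of the paraxial mesoderm, 4.26 and 3.72. The E protein gene Tcf4 was at −0.23, Tcf12 at 0.09 and Tcf3 at 0.03.

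Of 17 measured genes of the Notch pathway, 6 were lower, 5 higher and 6 equal. Hes1, a Notch-responsive repressor, measured 6.69 and 6.92, a difference of 0.23, and Notch3 was higher in both probe sets, by 0.19 and 0.20. Notch2 and Jag1 were at −0.13 and −0.12. Wnt target genes, 6 of 15 measured, ranged from Znrf3 at −0.16 to Axin2 at 0.22, both feedback inhibitors. In the Nodal-activin list 7 of 12 were lower and 4 higher, Furin at −0.19, Lefty2 at −0.14 and Lefty1 at −0.10. None of these 3 lists held a gene past 1.2-fold.

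In the primitive streak and mesoderm list, 5 of 11 were lower and 2 higher, and 3 of the 11, Mesp2, Gata2 and Snai2, were at least 1.2-fold lower, beside 1.9% of all genes, and 1, Snai1, at least 1.2-fold higher, beside 0.897%. At the level of most members, between the floor and 5, 5.3% of all genes passed that limit in either direction. Snai2 measured 3.84 and 3.57. Endoderm genes had 8 of 16 higher and 4 lower. The laminin genes Lama1 and Lamc1, of the basement membrane, measured 7.78 and 8.05, and 7.89 and 8.14, though the second probe set of Lamc1 gave 0.00. Gata6 was higher in both probe sets, by 0.15 and 0.44, and Hnf4a was lowest at −0.25. Trophoblast genes ranged from Krt8 at −0.12 to Krt19 at 0.06. The germ cell list held 10 lower and 5 higher genes among 17 and had a median of −0.03, from Mael at −0.20, Sycp3 at −0.19 and Stk31 at −0.15 to Dazl at 0.08 and Tex19.1 at 0.07.

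Of 18 measured genes for DNA methylation and Polycomb proteins, 12 were higher, 4 lower and 2 equal, with a median of 0.04. Kdm6b, an H3K27 demethylase, was highest at 0.34, with 7.49 and 7.82, but its other 2 probe sets gave −0.05 and −0.04. Trim28, a corepressor of KRAB zinc finger proteins, measured 11.83 and 12.02 and was higher in both probe sets, and Suz12 was at 0.13 with other probe sets from −0.30 to 0.19. Dnmt3l was lowest at −0.13. With all probe sets of a gene averaged, 9 were higher and 8 lower, so the list's direction rests on the choice of probe set. Over all genes, averaging gave 5525 of 10708 lower and 2844 higher.

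**Figure D3:**
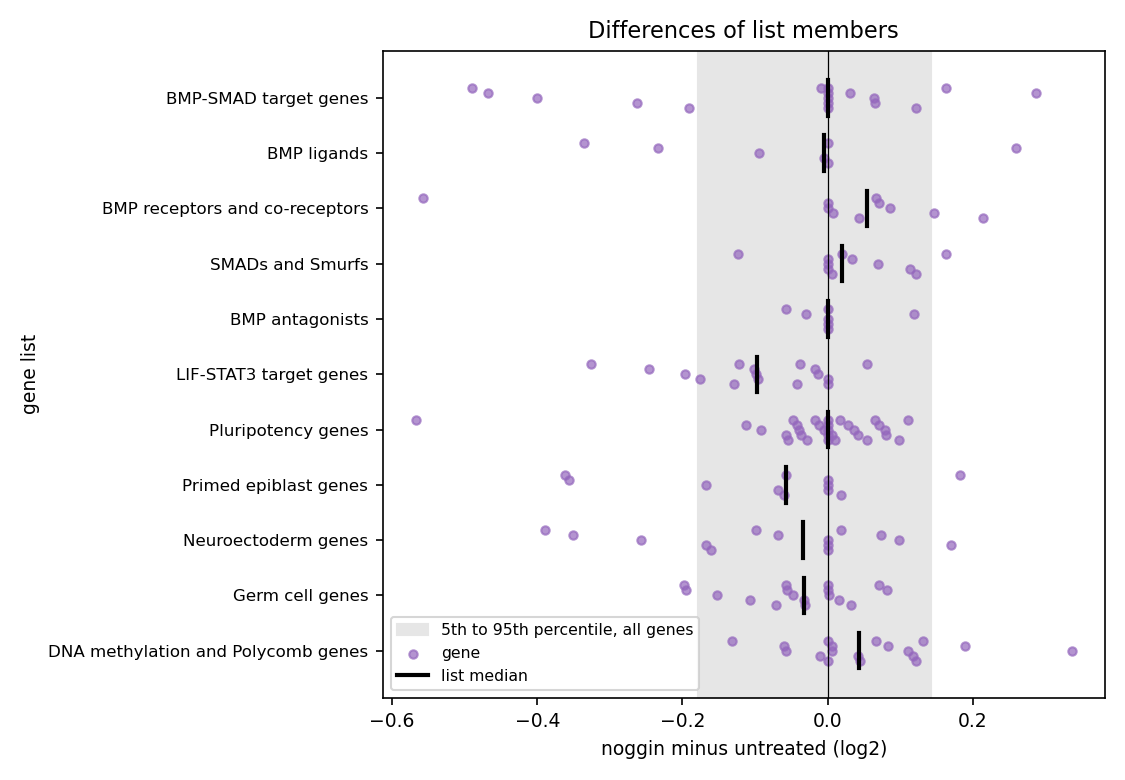
Difference between the noggin and the untreated array (horizontal axis, log2) of each measured gene in 11 lists, 1 point per gene, with the list median as a black bar and the 5th to 95th percentile of all genes, −0.18 to 0.14, in grey. The LIF-STAT3 target list has a median of −0.10, and Lin28a and Hjv lie at the far left of their lists.

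The remaining lists concern general cell physiology. Their counts with probe sets averaged stand beside 5525 of 10708 genes lower and 2844 higher over all genes in that setting. Cell cycle genes had 9 of 23 higher and 7 lower, but 5 of 22 higher and 14 lower with probe sets averaged, with Mki67 highest at 0.24, Top2a at 0.17, whose second probe set gave −0.23, and Ccnd1 lowest at −0.13. Ccnd1 was lower in all 3 of its probe sets. Among cell cycle inhibitors and p53 targets Gadd45a was at −0.19 and Trp53inp1 at 0.20. The 10 heat shock genes lay between −0.04 and 0.03, with 6 higher and 3 lower, but with probe sets averaged 3 were higher and 6 lower, and another probe set of Hspa8 gave −0.38. Hypoxia and glycolysis genes had 9 of 16 higher, with Pfkl at 0.15, its second probe set at 0.09, and Adm at −0.18. Cholesterol synthesis genes ranged from Insig1 at −0.14 to Sqle at 0.05, unfolded protein and amino acid response genes from Atf4 at −0.09, with a second probe set at −0.53, to Ddit3 at 0.19, and interferon response genes from Irf1 at −0.10 to Stat2 at 0.07. Of 14 fibroblast markers 7 were higher, with Fn1 at 0.28, Postn at 0.22 and Thy1 at 0.18, and 1, S100a4 at −0.31, was lower. The second probe set of Fn1 gave −0.08, and with probe sets averaged 4 markers were higher and 4 lower.

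The genes with the largest differences mostly had low levels. The 12 lowest began with Trnp1, a regulator of brain progenitors, at 4.47 without and 3.65 with noggin. Taf15, an RNA-binding protein gene, followed at 5.05 and 4.34, with a second probe set at 0.09. Bcan (brevican) measured 3.45 and 2.77, Zfp758 3.60 and 2.98, Car14 (carbonic anhydrase 14) 3.55 and 2.97 and Neurog3 3.84 and 3.28, all 4 below the floor with noggin. Zfp935, at 3.01 and 2.43, was below the floor on both arrays and entered through the BMP4 array. Hoxd9 measured 4.59 and 3.97. Of the 10 measured Hox genes it was the member past 1.2-fold, where 1.9% of all genes were at least 1.2-fold lower. Between the floor and 5, where the median level of the Hox list lay, 5.3% of all genes passed 1.2-fold in either direction. Slc44a2, a choline transporter-like gene, measured 6.74 and 6.08 by a probe set with a cross-matching suffix, and its other 2 probe sets gave 0.00. Spn, the leukocyte surface sialophorin, measured 5.12 and 4.56, and its second probe set gave 0.43, the opposite sign. Lin28a, described above, was among the 12, and 1 further gene has a clone name. None of these 12 had a second probe set above the floor that was also lower.

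At the other end stood Fam160a1, at 2.91 without and 3.51 with noggin. Fam160a1 measured 3.15 with BMP4, so it passed the floor only through the noggin array, where it is high. Its untreated value was held by 364 probe sets. Tigd5 measured 5.10 and 5.60, with a second probe set at 0.00, and the basic leucine zipper repressor gene Nfil3 3.63 and 4.10. Cep135, of the centrosome, measured 4.40 and 4.86. Nacc1, a BTB-domain transcriptional regulator known to act in ES cells, measured 7.73 and 8.16, and its other 2 probe sets were higher as well, by 0.08 and 0.38. Nacc1 was the only one of these 12 with every probe set above the floor higher and a second one past 1.2-fold. Itsn2 was at 0.42, Dgkq and Kcnd1 at 0.41, Retn at 0.40 and Cdc42bpa at 0.37. Retn had exactly the same value, 4.36, on the noggin and BMP4 arrays. The last 2 of the 12 have model or clone names.

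Genes with several probe sets give a view within the arrays, since their probe sets carry the same gene symbol, though they share the array and are not replicates. Whether the probe sets of a gene measure the same transcript was not examined. Above the floor on an array of the pair, 5109 genes had 2 or more probe sets, and the differences within a gene had an SD of 0.11. In 658 of these genes (12.9%) all probe sets were lower, and in 312 (6.11%) all were higher. All probe sets were at least 1.2-fold lower in 5 genes (0.0979%) and at least 1.2-fold higher in 0 (0.0%). The 5 were Pou3f1, Prxl2c, Zfp995, H1f2 and Cmc1. H1f2, a linker histone gene, measured 7.62 and 7.32, with −0.48 in its second probe set. Cmc1, an assembly factor of cytochrome c oxidase, measured 7.43 and 7.16, with −0.52 in its second. Prxl2c measured 6.20 and 5.82, and Zfp995 5.49 and 5.17, and on the BMP4 array Zfp995 also measured 5.17. Next came Jph2, Hs3st3b1, Bet1, Rnpc3 and Rassf10, whose smaller differences lay between −0.25 and −0.22, and Id4.

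On the higher side, Hcfc1, a chromatin cofactor, measured 9.26 and 9.53, and its 3 probe sets gave 0.24, 0.27 and 0.33. Apc, the scaffold of the beta-catenin destruction complex, measured 7.64 and 7.87, and its 3 probe sets above the floor gave 0.23, 0.34 and 0.52. Rc3h2, an RNA-binding ubiquitin ligase, gave 0.22 and 0.30. Others were Notch3, the autophagy gene Atg13, Rcsd1, the laminin gene Lama5, the endosomal gene Dnajc13, Mybbp1a, the spindle gene Numa1, Slco2b1 and Nes, with smaller differences between 0.17 and 0.19. Of the 220 genes at least 1.2-fold lower, 69 had another probe set above the floor: in 30 all others were lower too, in 16 at least 1 was higher, and in 23 at least 1 was exactly equal and none higher. Another probe set past 1.2-fold in the same direction was found in 9. Of the 104 genes at least 1.2-fold higher, 44 had another probe set, and 15 of the 44 had all others higher, 17 at least 1 lower and 2 another past 1.2-fold.

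**Figure D4:**
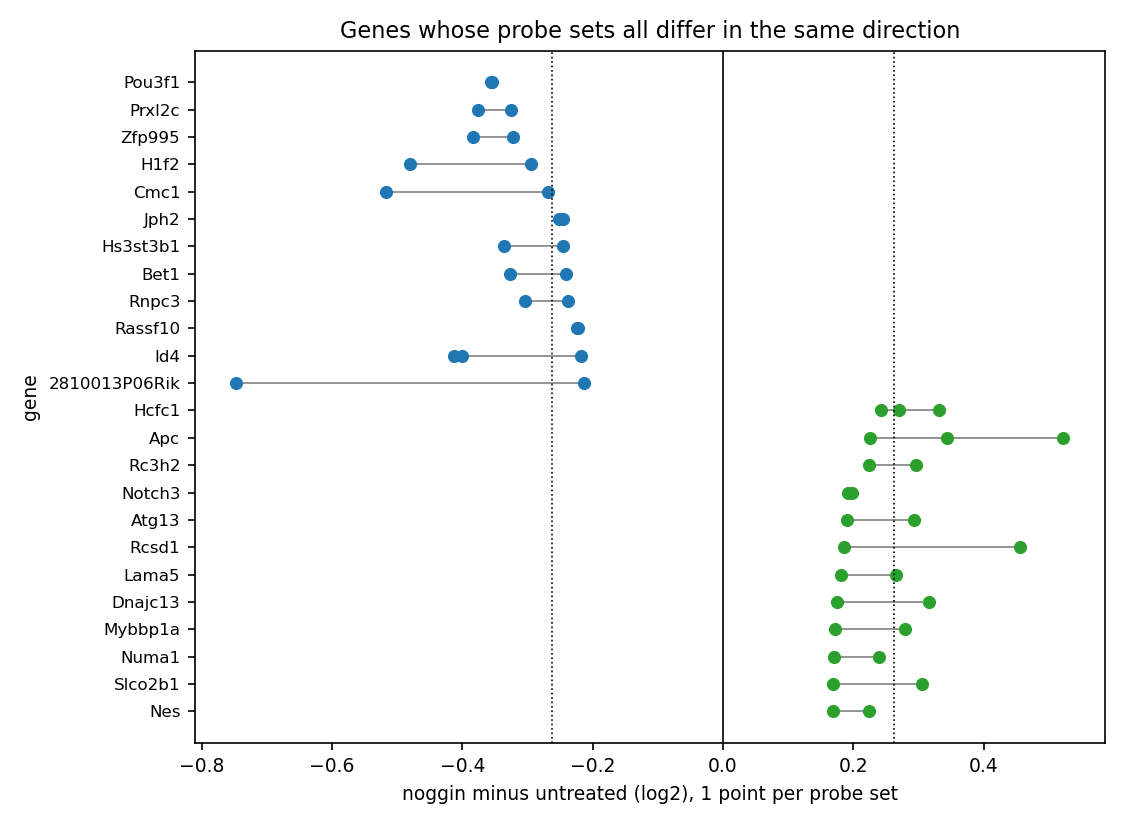
Difference between the noggin and the untreated array (horizontal axis, log2) for every probe set above the floor, 1 point each, of 12 genes in each direction, ranked by the smallest difference among their probe sets; dotted lines mark 1.2-fold. In 5 genes, from Pou3f1 to Cmc1, every point lies at or below the lower dotted line, and in no gene does every point lie above the upper one.

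The spread of the differences was wider at low levels. Among the 130 genes whose mean of both values lay at or below the floor, 76.9% were lower with noggin and 11.5% higher, and the SD of the differences was 0.20. These genes passed the floor through 1 array of the pair or through the BMP4 array, and more genes passed on the untreated array alone of the pair than on the noggin array alone, so the filter sets part of these values. The SD was 0.12 between the floor and 5, 0.09 between 5 and 7, and 0.06 above 11. Past 1.2-fold were 26.9% of the genes at or below the floor, 5.3% between the floor and 5, and 1.14% between 7 and 9. The 5th percentile of all probe sets was 1.60 with noggin and 1.82 without, and of the 14823 single-gene probe sets at or below the floor on all arrays, 57.8% were lower and 7.3% higher. Low values also came in steps: of the genes between the floor and 5, 74.5% on the untreated array and 69.7% on the noggin array had a value that at least 10 probe sets shared, against 0% above 9. For example, the untreated value of Neurog3 was shared by 182 probe sets and that of Hoxd9 by 102. Of the 7300 genes that were not equal on the pair, 954 (13.1%) had exactly the same value on the noggin and BMP4 arrays.

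The share of lower values changed with the genomic span of the gene, introns included, as RefSeq gives it for 99.7% of the measured genes. The genes were put into 5 groups of equal size by span. In the group of the shortest genes, with a median span of 4.15 kb, 46.8% were lower with noggin and 15.9% higher. The shares changed in steps over the 5 groups, and among the longest genes, with a median span of 108 kb, 25% were lower and 39.1% higher. Mean differences went from −0.03 to 0.01. In genes with a mean level between 7 and 9, 60.8% of those in the shortest group and 25.4% of those in the longest were lower. For BMP4 minus untreated, which shares the untreated array, the corresponding shares lower were 33.8% and 40.3%. The 220 genes at least 1.2-fold lower had a median span of 12.7 kb and the 104 at least 1.2-fold higher one of 30.5 kb, against 22.3 kb over all measured genes. The span is not the length of the transcript, which was not used here.

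**Figure D5:**
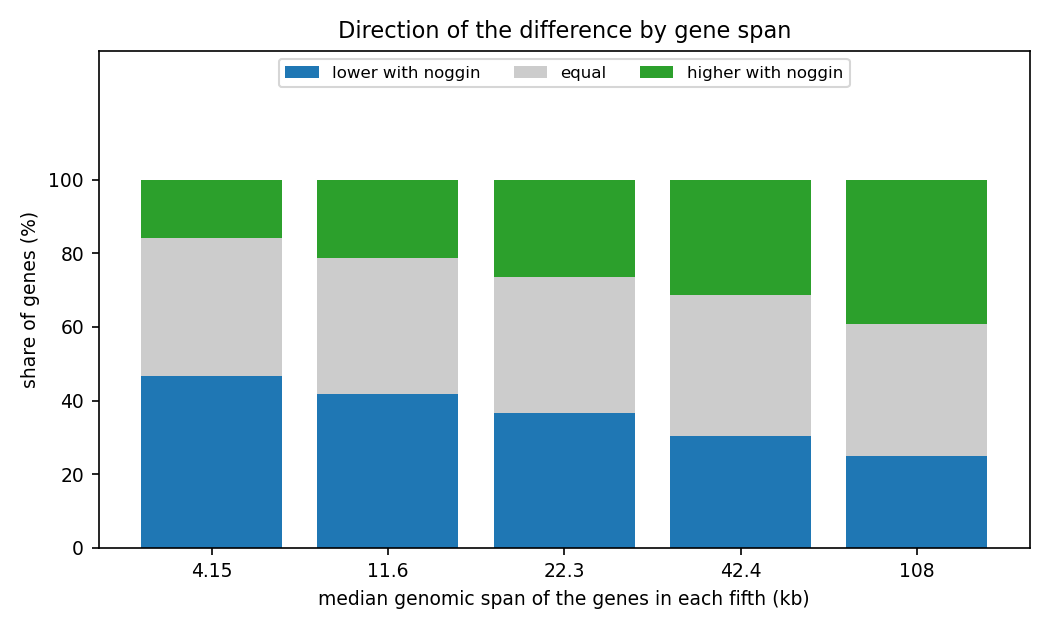
Share of measured genes (vertical axis, %) that were lower with noggin, exactly equal or higher, in 5 equal groups of genes by genomic span (horizontal axis, median span of each group in kb). The share of lower genes goes from 46.8% in the shortest to 25% in the longest group, and the share of higher genes from 15.9% to 39.1%.

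Families of housekeeping genes are given with their spans. The Nduf genes, which encode subunits and assembly factors of respiratory complex I and have a median span of 7.8 kb, had 31 of 43 lower and 3 higher, with a median of −0.04. Ndufaf4 was lowest, at 8.61 and 8.33. Proteasome subunit genes, median span 12.4 kb, had 27 of 38 lower and 1, Psmd2, higher. Psmb10, of the immunoproteasome, measured 7.56 and 7.24, and Psmc4, of the ATPase ring, 10.49 and 10.21. The 45 cytosolic ribosomal protein genes, median span 3.35 kb, had 20 lower and 8 higher, within −0.15 and 0.07. Among all genes of the shortest group with levels above 9, 61.2% were lower and 17.3% higher. The median spans of the Nduf and proteasome genes lay in the next group, from 7.5 to 16.3 kb. In that group, over all levels, 41.9% of genes were lower and 21.2% higher.

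By contrast, the BMP receptor list, with 7 of 10 higher, had a median span of 90.7 kb, and the SMAD and Smurf list one of 69 kb. The LIF-STAT3 target list had a median span of 5.33 kb and the BMP-SMAD target list one of 5.18 kb. A smooth curve of the difference against the span was then subtracted, an alternative chosen after seeing the data. Exactly equal genes thereby took the sign opposite to the curve. After this, 14 of 16 LIF-STAT3 target genes were below 0, with a median of −0.08, and 31 of 43 Nduf genes, with a median of −0.03. Proteasome subunit genes had 26 of 38 below 0, with a median of −0.02. The BMP receptor list stayed mostly higher, with 7 higher and 3 lower and a median of 0.05. The SMAD and Smurf list had 7 higher and 4 lower, with a median of 0.01. The balance of some other lists changed, in part through their exactly equal genes. Of 17 BMP-SMAD target genes, 5 of them equal before, 7 were then lower and 10 higher. Of 45 ribosomal protein genes, 17 of them equal before, 18 were then lower and 27 higher. Of 7 BMP ligand genes, 2 of them equal before, 3 were lower and 4 higher. Over all 11559 genes with a span, 5482 were lower and 6077 higher. The Nodal-activin list had 6 lower and 6 higher. The part of span, level and spike differences in any list's difference was not tested. The Zfp zinc finger genes, median span 17.2 kb, had 87 of 269 lower and 73 higher, and the solute carrier genes 74 of 216 lower and 58 higher, shares near those of all genes.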

How the data were processed

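Total RNA of R1 cells was hybridised to Affymetrix arrays after biotin labelling, per the labels' protocols. The authors deposited log2 values, which the submitters' processing notes credit to RMA; its version and settings are not given in the sources used here. Values were used as deposited. Gene symbols came from the platform annotation; 932 probe sets with several symbols and 9160 with none were left out, as were 64 controls. Values equal to 6 decimals counted as equal. Sizes of 1.5-fold and 1.2-fold were counted, with no test, since each condition has 1 array, and arrays have no read depth. Promoters and gene spans are from RefSeq (GRCm38.p6); the Entrez identifiers of 34741 probe sets matched. Named were the 12 genes with the largest differences in each direction, the 12 in each direction whose smallest difference among probe sets was largest, all measured BMP-SMAD target and BMP pathway genes, Pou5f1, Sox2 and Nanog, and up to 3 genes in each direction of other lists; the remaining LIF list members were added after their values were seen, and the values of genes with clone names were left out. Members and lists were chosen with earlier results of these data known. The counting was tested on simulated data. Alternatives were other floors, averaged or plain-suffix probe sets, median centring, and lowess curves (span 0.3, statsmodels 0.14.6) against level and against gene span. Python 3.11.15 and pandas 2.3.3 were used.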

Additional observations from a re-analysis of the deposited data

How the results depend on the processing

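No paired analysis was possible because each condition has 1 array. The count of 8 genes at least 1.5-fold lower was 64 with no floor, 1 with a floor at the 75th percentile, 4 with both arrays above the floor and 4 with probe sets averaged. The single gene at least 1.5-fold higher was lost, leaving 0, with the floor at the 75th percentile and with both arrays above the floor. The count of genes at least 1.2-fold lower with noggin, 220, was 1291 with no floor and 55 with the 75th percentile floor, and the count of 104 at least 1.2-fold higher was 34 with that floor and 45 with probe sets averaged. The median of the BMP-SMAD target list, 0.00, was −0.10 with the 75th percentile floor, and the median difference of LIF-STAT3 target genes, −0.10, was −0.0634 with probe sets averaged and −0.00641 with plain-suffix probe sets. The cause was not tested beyond the fewer or more genes that each setting admits. After subtracting a lowess curve against level, 4535 genes were lower and 7059 higher, and against gene span 5482 and 6077. Exactly equal genes take the sign opposite to the curve in both settings. Centring on the median could change nothing, since the median over genes is 0. Of the genes named at 1.2-fold or more, none turned its sign after subtracting either curve or, where an average could be had, with probe sets averaged. With 1 array a side, signal near background limits the precision.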
